A study of Mus musculus with 2 samples.

Results

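The nuclear genes of oxidative phosphorylation were followed in PDGFRα+ cells of the inguinal fat pad, in 87 of the 19938 genes measured. Members were chosen by symbol: genes starting with Nduf, Uqcr, Cox4 to Cox8 or Atp5, and the genes Sdha, Sdhb, Sdhc and Sdhd, read from probe sets that name 1 gene, with the probe set of highest mean signal taken per gene. Cox7a1, Cox8b, pseudogenes and clone names were left out. The rule itself uses no measured value other than the mean signal of a probe set. By what the proteins are known to be, 34 members belonged to complex I, 4 to complex II, 8 to complex III, 17 to complex IV and 17 to complex V. The other 7, the Ndufaf genes, encode assembly factors of complex I and no subunit.

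Female mice were given doxycycline (dox) at postnatal day 1 and their cells were sorted at an age of 6 weeks. The mice carried either floxed Sox9 (floxed) or the genotype labelled Sox9 PreASKO. The labels name neither the Cre driver nor the transgene that answers to doxycycline. The stromal vascular fraction, which is what remains of fat tissue without the adipocytes, was sorted with a PDGFRα antibody, and the RNA of 3 mice per group was pooled onto 1 array. There were thus 2 arrays and no replicate, so no value here has an error or a p-value, and no difference was tested. Differences are PreASKO minus floxed in log2 signal. The series names 1.5-fold, 0.585 on this scale, as its limit for a change. RNA of a mixed sort was measured in bulk, so fewer cells of a type and less RNA per cell cannot be told apart.

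Oxidative phosphorylation couples the oxidation of NADH and succinate to the making of ATP at the inner mitochondrial membrane. Complex I takes electrons from NADH and complex II from succinate, complex III passes them to cytochrome c, and complex IV passes them to oxygen. Complexes I, III and IV pump protons, and complex V, the ATP synthase, makes ATP from their return flow. Most subunits are encoded in the nucleus and a few in mitochondrial DNA, and complex II is wholly nuclear. Adipocyte precursors raise their mitochondrial content as they mature into fat cells.

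Sox9, the targeted gene, was at 5.25 in floxed and 4.97 in PreASKO, a difference of -0.27 that is below the limit and does not separate the labels. The position of its probes in the gene was not examined here, so this is no check of the deletion. Of 8 measured fibroblast and adipocyte precursor markers none was below background in either array. Pdgfra, the sorting marker, was at 9.86 and 9.55. Background here is 4.64, the higher of the arrays' 95th percentiles over 1015 olfactory receptor genes, assumed not to be expressed in fat tissue.

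No member differed by 1.5-fold. Over all genes 1.66% were 1.5-fold higher in PreASKO and 1.98% were 1.5-fold lower. Of the 4985 genes with the highest mean signal, which held 74 of the members, 1.12% were 1.5-fold higher and 0.381% were 1.5-fold lower. The limit was passed in either direction by 71 of the 1015 olfactory receptor genes. A count of 0 in 87 genes is near these shares and is no result about the members. The members' differences ran from -0.33 to 0.47 with a median of 0.07, against a median of 0 over all genes. PreASKO was the higher array in 66 of 87 members (75.9%), and in 48.2% of all genes. At a lower limit of 1.2-fold, 9 members (10.3%) were higher and 2 (2.30%) lower, where 13.7% and 14% of all genes passed the same limit. The share of members that were higher by any amount thus stood above that of all genes, while their shares past the limits did not. The middle 50% of the members spanned 0.143 on the log2 scale, and that of all genes spanned 0.316.

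**Figure D1:**
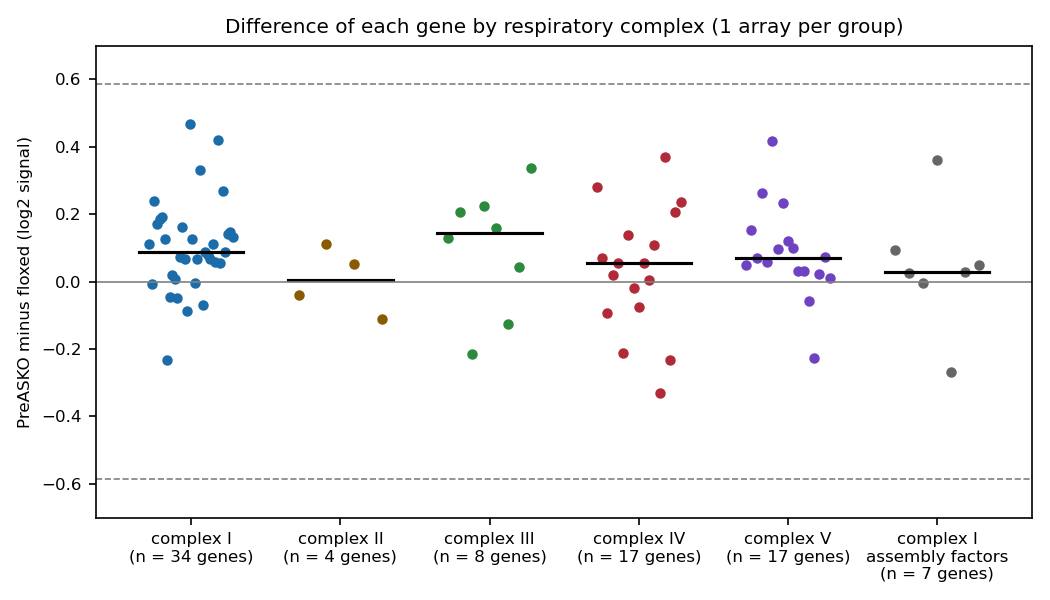
Difference PreASKO minus floxed in log2 signal (vertical axis) for each of 87 genes, grouped by respiratory complex (horizontal axis, with the number of genes). Each point is 1 gene, black lines are medians and dashed lines mark 1.5-fold; every point lies between the dashed lines, and the medians run from 0.01 in complex II to 0.14 in complex III.

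The promoters of these genes are known to hold recognition sequences of NRF1, of the ETS factor GABP and of YY1, which act in respiratory gene transcription, and some that of the estrogen-related receptors (ERR). RefSeq promoters of GRCm38.p6 (250 bases before to 50 after the start) were found for 71 of 87 members, 76 promoters in all. The hexamer TGCGCA, the repeated element of the NRF1 sequence, occurred on either strand in 25% of member promoters and 7.76% of all 32851 promoters. None of the other 3 sequences searched contains the hexamer. The ETS sequence CCGGAAG occurred in 23.7% and 8.86%, the YY1 sequence AAGATGGCG in 9.21% and 1.40%, and the ERR sequence CAAGGTCA in 5.26% and 1.56%. Among promoters of the measured genes alone the shares were 10.3%, 12.1%, 1.94% and 1.19%. Of 7 YY1 matches in the members 6 lay after the start, between positions 23 and 36. The 4 stretches here, each the 250 bases before the start on the minus strand with all matches in capitals, are of 2 members that were higher in PreASKO and 2 that were lower, and show that matches stood on both sides. They were chosen after their values were seen.
Ndufs5 (chr4:123718187-123718436): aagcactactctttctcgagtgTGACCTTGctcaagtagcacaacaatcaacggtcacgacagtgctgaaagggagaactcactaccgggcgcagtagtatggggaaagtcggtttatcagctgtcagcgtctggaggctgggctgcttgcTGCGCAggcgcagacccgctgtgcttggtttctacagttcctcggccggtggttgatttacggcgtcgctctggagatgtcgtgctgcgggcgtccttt
Uqcr11 (chr10:80406822-80407071): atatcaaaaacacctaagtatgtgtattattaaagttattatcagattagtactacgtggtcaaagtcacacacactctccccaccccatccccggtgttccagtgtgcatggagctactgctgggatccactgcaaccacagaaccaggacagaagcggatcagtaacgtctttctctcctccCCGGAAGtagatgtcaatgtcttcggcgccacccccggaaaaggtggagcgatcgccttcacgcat
Ndufa5 (chr6:24527691-24527940): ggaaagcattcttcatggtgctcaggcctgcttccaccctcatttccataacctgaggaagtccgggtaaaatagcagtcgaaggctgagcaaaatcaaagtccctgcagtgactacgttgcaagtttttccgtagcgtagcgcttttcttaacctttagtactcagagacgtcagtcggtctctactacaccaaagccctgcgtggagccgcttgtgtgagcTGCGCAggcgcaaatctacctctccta
Sdhd (chr9:50603850-50604099): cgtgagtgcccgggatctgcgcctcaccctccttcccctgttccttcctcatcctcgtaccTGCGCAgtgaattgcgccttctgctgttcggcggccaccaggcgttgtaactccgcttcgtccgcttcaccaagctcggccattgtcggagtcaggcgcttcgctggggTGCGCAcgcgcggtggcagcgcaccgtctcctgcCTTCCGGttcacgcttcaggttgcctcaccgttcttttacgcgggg

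Ndufs5, higher by 0.42, held the NRF1 hexamer at -99 and the ERR sequence at -228. Uqcr11, higher by 0.21, held the ETS sequence at -66. Ndufa5, lower by a difference of -0.23, held the NRF1 hexamer at -27. Sdhd, at a difference of -0.11, held the hexamer at -189 and -80 and the ETS sequence at -46. The ERR sequence also occurred for Sdhd, at position 37 after the start, outside the stretch shown. Among the 18 members with the hexamer 11 were higher in PreASKO, with a median difference of 0.02, and among the 53 matched members without it 44 were higher, with a median of 0.09. For the ETS sequence 14 of 18 members with it were higher (median 0.08) and 41 of 53 without it (median 0.07). For the YY1 sequence these were 6 of 7 (median 0.06) and 49 of 64 (median 0.08). For the ERR sequence they were 2 of 4 (median 0.09) and 53 of 67 (median 0.07). A match of letters is a description and does not show that a factor was bound.

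Complex I, the NADH dehydrogenase, had the largest group. Of its 34 members 27 were higher in PreASKO, 4 of them by 1.2-fold, and none was 1.2-fold lower, with a median of 0.09. The shares over all genes, to be set beside the counts of each complex, were 48.2% higher, 13.7% by 1.2-fold, and 14% 1.2-fold lower. The 6 core subunits measured, which have counterparts in the bacterial enzyme, were all higher. Ndufs7, which holds the last iron-sulfur cluster before ubiquinone, was at 6.90 in floxed and 7.17 in PreASKO, a difference of 0.27. Ndufv1, the subunit that binds NADH and flavin, was at 7.22 and 7.36, and its partner Ndufv2 was at 7.86 and 8.01. The iron-sulfur proteins Ndufs1 (7.07 and 7.14) and Ndufs8 (7.78 and 7.87) and the core subunit Ndufs3 (8.06 and 8.18) differed by 0.07, 0.09 and 0.11. Without Ndufs7 the differences of these core subunits ran from 0.07 to 0.15. The 9 accessory subunits of the matrix arm had a median of 0.05. The 18 accessory subunits of the membrane arm had a median of 0.10 and held the 2 most positive differences of all members.

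Ndufb3, a small accessory subunit of the membrane arm, was at 6.15 in floxed and 6.62 in PreASKO, which is 1.38-fold. Ndufs5, another membrane arm subunit, was at 9.40 and 9.81 (1.34-fold), and Ndufb8 was at 8.41 and 8.74 (1.26-fold). The next of this arm, Ndufa11, was at 9.14 and 9.37, a difference of 0.24. The value of Ndufs5 rests on 1 probe set: a further one, which names Ndufs5 and its pseudogene together and was outside the rule, was at 8.59 and 8.60. In the other direction Ndufa5, an accessory subunit of the matrix arm, was at 8.34 and 8.11 (-0.23). Ndufb2 was at 7.68 and 7.59 and Ndufb9 at 9.44 and 9.37, both within 0.1 of level. Genes of the same arm of the complex thus stood on both sides of 0. Ndufb4 was outside the rule because its probe sets also name the copy Ndufb4b, and these differed by 0.199 and 0.202.

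The Ndufaf genes had a median of 0.03, and 5 of 7 were higher in PreASKO. Ndufaf4 was at 5.87 and 6.23 (0.36), and Ndufaf5, an enzyme that modifies Ndufs7 during assembly, was at 6.44 and 6.18 (-0.27). Both passed 1.2-fold, in opposite directions. Ndufaf1 differed by 0.09 and Ndufaf7 by 0.05, and Ndufaf2 (0.03) and Ndufaf3 (-0.0041) were nearly level. Ndufaf6 was at background, with 4.64 and 4.67.

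Complex II, succinate dehydrogenase, is also an enzyme of the citric acid cycle and was level only in its median. The flavoprotein Sdha was at 8.40 in floxed and 8.36 in PreASKO, and the iron-sulfur protein Sdhb was at 7.98 and 8.09. The membrane anchors Sdhc and Sdhd were at 8.31 and 8.36, and at 6.95 and 6.84. The differences, -0.04, 0.11, 0.05 and -0.11, were divided evenly between the directions, with a median of 0.01.

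Complex III, the cytochrome bc1 complex, had the highest median of the 5 complexes, 0.14 over 8 members, of which 6 were higher in PreASKO. Uqcrq, a small subunit that lies next to cytochrome b, was at 8.41 and 8.74, a difference of 0.34, and alone passed 1.2-fold. The core proteins Uqcrc1 (7.32 and 7.54) and Uqcrc2 (8.11 and 8.27), which face the matrix and resemble processing peptidases, differed by 0.22 and 0.16. The small subunits Uqcr11 (8.24 and 8.45), Uqcr10 (9.54 and 9.67) and Uqcrh, the hinge protein (10.7 and 10.7), differed by 0.21, 0.13 and 0.04. Uqcrfs1, the Rieske iron-sulfur protein, was lower, at 7.10 and 6.98. Uqcrb, a matrix-side subunit, was at 8.85 and 8.63, a difference of -0.22, and its 3 probe sets ran from -0.26 to -0.22. RNA differences within this complex thus lay on both sides of 0. All but that of Uqcrq were smaller in size than 0.303, the widest gap between probe sets of 1 gene. Cyc1, the cytochrome c1 of this complex that the symbol rule does not take in, was at 7.66 and 7.63, and cytochrome c itself, Cycs, was at 9.21 and 9.07 (-0.14).

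Complex IV, cytochrome c oxidase, was counted with Ndufa4, a subunit first assigned to complex I, and its relative Ndufa4l2. The 10 general forms had a median of 0.08, and 8 were higher in PreASKO. Cox8a, the smallest of these subunits, was at 9.11 and 9.47 (0.37), and Cox4i1, the regulatory subunit, was at 9.97 and 10.25 (0.28). Ndufa4 was at 10.5 and 10.7, a difference of 0.21. Cox6b1 (0.14), Cox7b (0.11), Cox6a1 (0.06), Cox7a2 (0.06) and Cox5b (0.02) were higher by less, and Cox5a (-0.09) and Cox6c (-0.08) were lower. Under quantile normalization Cox6a1 turned to -0.02. Cox7c was outside the rule because its probe sets also name a copy, and their differences ran from -0.12 to -0.09.

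The tissue forms and relatives had a median of -0.02 over 7 members, of which 3 were higher in PreASKO. Cox4i2, the lung form, Cox7b2 and Cox8c, both testis forms, lay below background in both arrays, so their differences (0.07, -0.33 and -0.23) carry no order. Cox7b2 was the lower member past 1.2-fold beside Ndufaf5. With values below background raised to it, its difference became 0 and the complex IV median fell from 0.06 to 0.02. Cox6a2, the heart and muscle form, was at 5.74 and 5.53, and the testis form Cox6b2 was at 6.03 and 6.01. Ndufa4l2, known as a hypoxia-responsive gene, was at 5.35 and 5.58, a difference of 0.24. Cox7a2l, a factor of respiratory supercomplexes, was level at 9.11 and 9.12. The forms of fat and muscle that the rule left out, Cox7a1 and Cox8b, were at 5.47 and 5.79, and at 6.25 and 6.73.

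**Figure D2:**
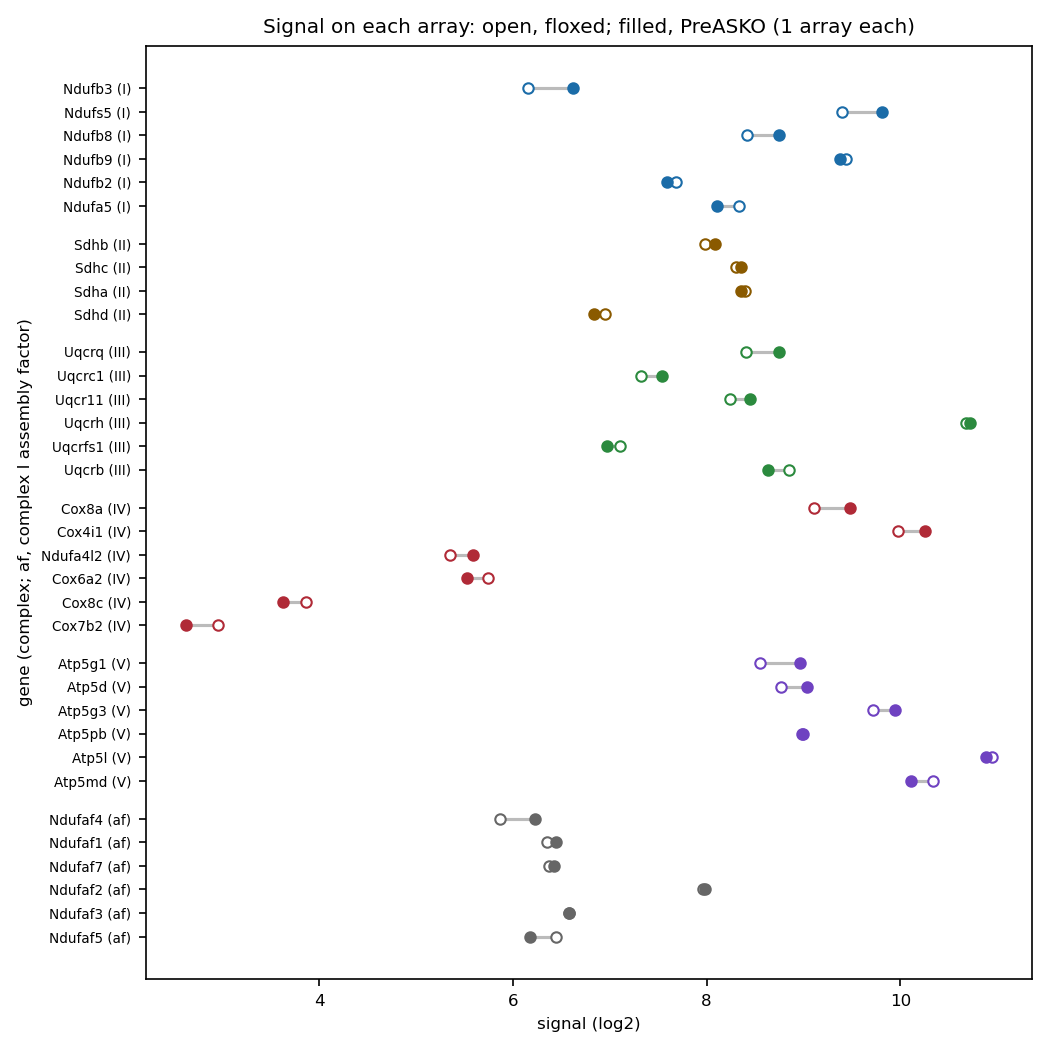
Log2 signal (horizontal axis) of the 3 most negative and 3 most positive members of each group (vertical axis), open circles for the floxed array and filled circles for the PreASKO array. The distance within a gene is its difference, up to 0.47 for Ndufb3; signals of different genes come from different probes and are not comparable.

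Complex V, the ATP synthase, had 15 of 17 members (88.2%) higher in PreASKO, with a median of 0.07, and 1 past 1.2-fold. Of the 4985 genes with the highest mean signal 55.3% were higher. Among the other genes of shortest genomic span, described below, it was 65.6%. After loess correction for mean level Atp5mpl turned from 0.02 to -0.01 and Atp5pb from 0.01 to -0.01. The 5 subunits of the F1 head and central stalk were all higher. The catalytic subunit beta, Atp5b, was at 9.83 in floxed and 9.98 in PreASKO, alpha, Atp5a1, at 9.71 and 9.76, and gamma, Atp5c1, at 9.63 and 9.70. Delta, Atp5d, differed most of these, with 8.77 and 9.03, and epsilon, Atp5e, was at 10.99 and 11.05. The c ring that turns with the proton flow is encoded by 3 genes with the same mature peptide. Of these Atp5g1 was at 8.55 and 8.97 (0.42), Atp5g3 at 9.72 and 9.95 (0.23) and Atp5g2 at 9.38 and 9.48 (0.10). The 4 peripheral stalk genes lay between 0.01 (Atp5pb) and 0.12 (Atp5h). The 5 small membrane subunits had a median of 0.02, with Atp5md, which acts in the dimer of the enzyme, at 10.34 and 10.11 (-0.23) and Atp5l at 10.94 and 10.89 (-0.06). The dimmer probe sets of Atp5md both gave -0.08. By median the c ring (0.23) stood highest of these 4 groups and the small membrane subunits lowest.

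Several probe sets of a gene give the only repeated measurement within an array. They can share sequence with each other and with gene copies, so they are not independent. Of 87 members 17 had several, 42 probe sets in all. The differences of 1 gene's probe sets spanned a median of 0.0415 and at most 0.303, and 10 of the 17 genes spanned less than 0.1. Atp5g1 gave 0.42 and 0.43, and Uqcr11 gave 0.21 and 0.30. Ndufa11 gave 0.24 and 0.38, and Cox7b 0.11 on both. Directions differed in 7 genes: Atp5h, Atp5l, Atp5pb, Cox5b, Ndufb11, Ndufc1 and Ndufs3. Ndufb11 spanned most, with 0.07 on the probe set used and -0.24 on a dimmer one. Ndufc1 gave 0.09 and -0.08, and Ndufs3 gave 0.11 and -0.02. Of the 87 members 79 had a difference smaller in size than the widest of these gaps, and 15 one smaller than the median gap.

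**Figure D3:**
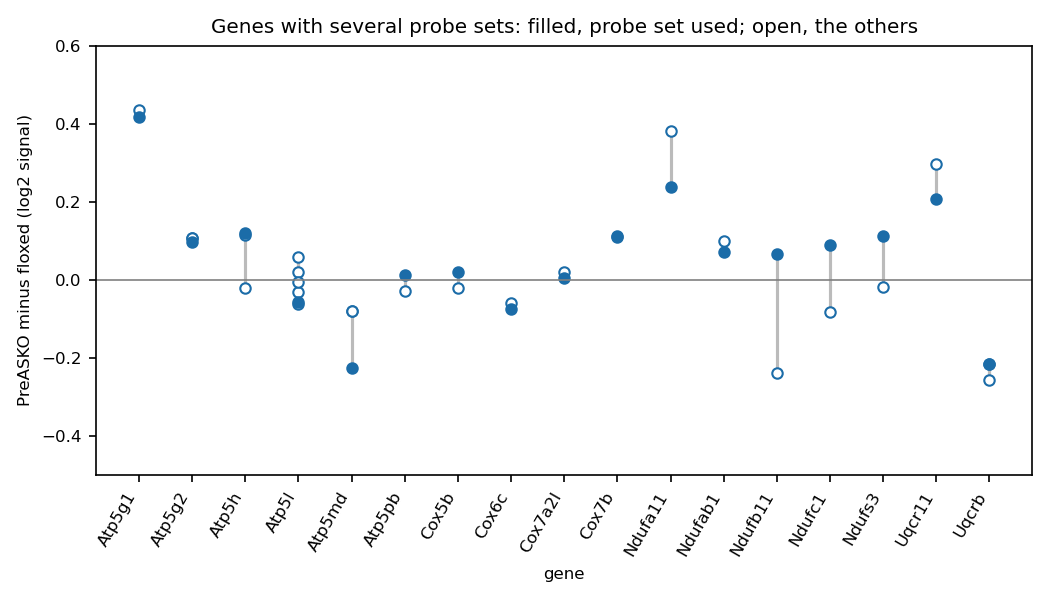
Difference PreASKO minus floxed in log2 signal (vertical axis) of every probe set of the 17 members with several (horizontal axis), filled for the probe set used and open for the others. The probe sets of Atp5g1 and Uqcrb lie close together, and those of Ndufb11 lie on both sides of 0, at 0.07 and -0.24.

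The small positive shift of the members was shared in part by other genes of short genomic span. Of the 4985 genes with the highest mean signal, which held 74 members, 55.3% were higher in PreASKO, with a median of 0.03, and 10.5% were 1.2-fold higher and 6.4% 1.2-fold lower. Of the 74 members among them 59 (79.7%) were higher, 7 (9.46%) by 1.2-fold, and none was 1.2-fold lower. These genes were split into 5 classes of equal size by the length of the gene in RefSeq (GRCm38.p6). In the shortest class, up to 7.82 kb, the 957 other genes had a median of 0.08, and 65.6% were higher. In the longest class, from 74.2 kb, the 995 other genes had a median of -0.01, and 46.6% were higher. The 74 members are short genes, with a median of 7.39 kb against 25.4 kb for the other genes of these classes, and 63 of them lay in the 2 shortest classes. In the shortest class 41 members had a median of 0.11, and 32 (78.0%) were higher. In the next class 22 members had a median of 0.0547, against 0.0455 in the 973 others. Of these members 19 (86.4%) were higher, against 59.9% of the others, while 0% and 13.2% were 1.2-fold higher. With the median of the other genes of its class taken off each member, the median of the 74 fell from 0.07 to 0.03, and 46 (62.2%) lay above 0. In the shortest class 17.1% of members and 17.9% of other genes were 1.2-fold higher. The difference between the classes had the same direction after quantile normalization (0.06 in the shortest and -0.02 in the longest class) and after loess correction (0.05 and -0.03). What gives short genes higher values in the PreASKO array was not tested.

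**Figure D4:**
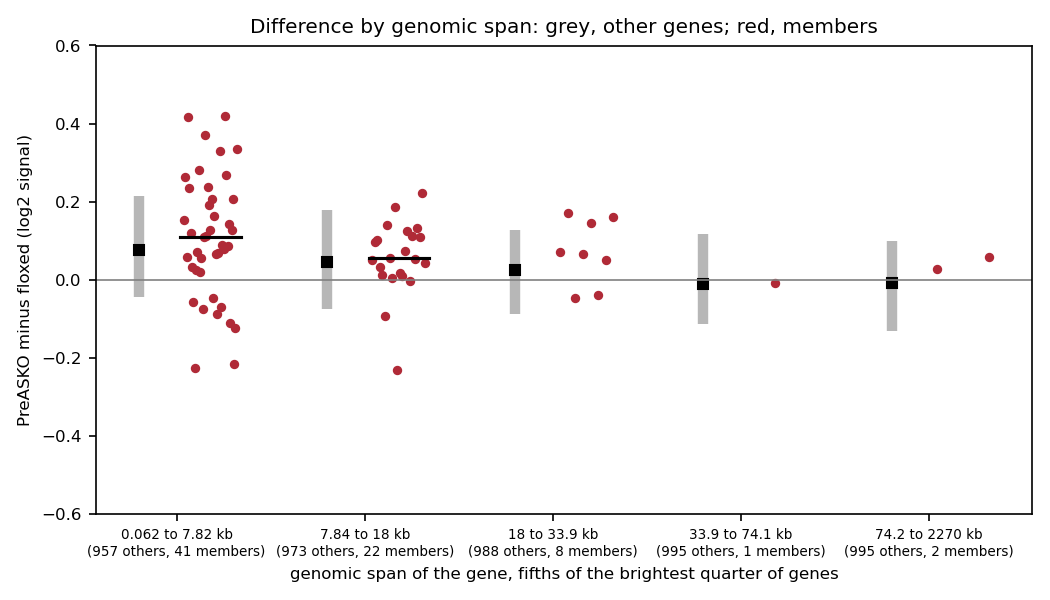
Difference PreASKO minus floxed in log2 signal (vertical axis) by class of genomic span (horizontal axis) for the 4985 genes with the highest mean signal. Black squares and grey bars are the median and middle 50% of the other genes, red points are members, and black lines are member medians where a class holds over 20; the squares fall from 0.08 to -0.01 with span.

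Other mitochondrial gene lists were not alike. Mitochondrial ribosomal proteins, which translate the subunits encoded in mitochondrial DNA, had a median of 0.13 over 77 genes, and 58 (75.3%) were higher in PreASKO. The share was 48.2% over all genes and 65.6% in the other genes of the shortest class of span. These are short genes too, with a median span of 7.75 kb. In this list 1 gene passed 1.5-fold, Mrps18b (6.48 and 7.12), followed by Mrpl21 (6.90 and 7.37). That count is near the 1.66% of all genes and is no result about the list. Mrpl44 (6.04 and 5.75) and Mrpl39 (7.80 and 7.59) were lowest. Assembly factors of the complexes had a median of 0.08 over 33 genes, of which 23 (69.7%) were higher and none passed 1.5-fold. Coa7, a complex IV assembly factor (4.79 and 5.33), and Lyrm7, a complex III assembly factor below background in both arrays, were at the top. Uqcc1 (5.14 and 4.76) and Cox11, a copper chaperone of complex IV (6.41 and 6.09), were at the bottom. The floxed value of Coa7 and the PreASKO value of Uqcc1 lay close to the background of 4.64.

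Genes of the citric acid cycle, which supply NADH and succinate, lay on the other side by median. The list read here also held Pdha1, Pdhb and Dlat of the pyruvate dehydrogenase complex. It left out the Sdh genes, which are counted as members. The list had a median of -0.12 over 16 genes, 11 were lower in PreASKO and none passed 1.5-fold. PreASKO was the higher array in 5 of the 16 (31.25%), and in 48.2% of all genes. At 1.2-fold 0 were lower and 1 was higher, where 14% and 13.7% of all genes passed. Ogdh (7.76 and 7.51) and Dlst (7.75 and 7.52), both of the oxoglutarate dehydrogenase complex, were the lowest by difference. Even that of Ogdh, -0.25, was smaller in size than the widest gap between probe sets of 1 gene, 0.303. Mdh2, malate dehydrogenase (9.17 and 9.53), and Idh3g, a subunit of isocitrate dehydrogenase (8.75 and 8.97), were higher. The genes of this list have a median span of 23.5 kb, against 7.75 kb for the mitochondrial ribosomal proteins. The middle class of genomic span described above, which takes in 23.5 kb, had a median of 0.025 over 988 genes outside the members. Of these 56.0% were higher in PreASKO, and in the longest class the median was -0.01. Whether span has a part in the lower median of the citric acid cycle list was not tested. The summed linear signal of the list was 4145 in floxed and 4177 in PreASKO, so the sum did not follow the median.

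Regulators of mitochondrial biogenesis had a median of 0.11 over 12 genes, 7 of them higher (58.3%, against 48.2% of all genes) and none past 1.5-fold. Gabpa, the DNA-binding subunit of GABP, was higher by 0.30, and Yy1 was at 7.83 and 7.65. Nrf1 was at 5.65 and 5.74, and the ERR gene Esrra at 5.35 and 5.27. The coactivator genes Ppargc1a (3.59 and 3.86) and Ppargc1b (4.23 and 3.87) lay below background in both arrays. Of the subunits encoded in mitochondrial DNA 2 were measured: ND3 of complex I was at 11.25 and 11.30, and COX2 of complex IV at 11.6 and 11.7.

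**Figure D5:**
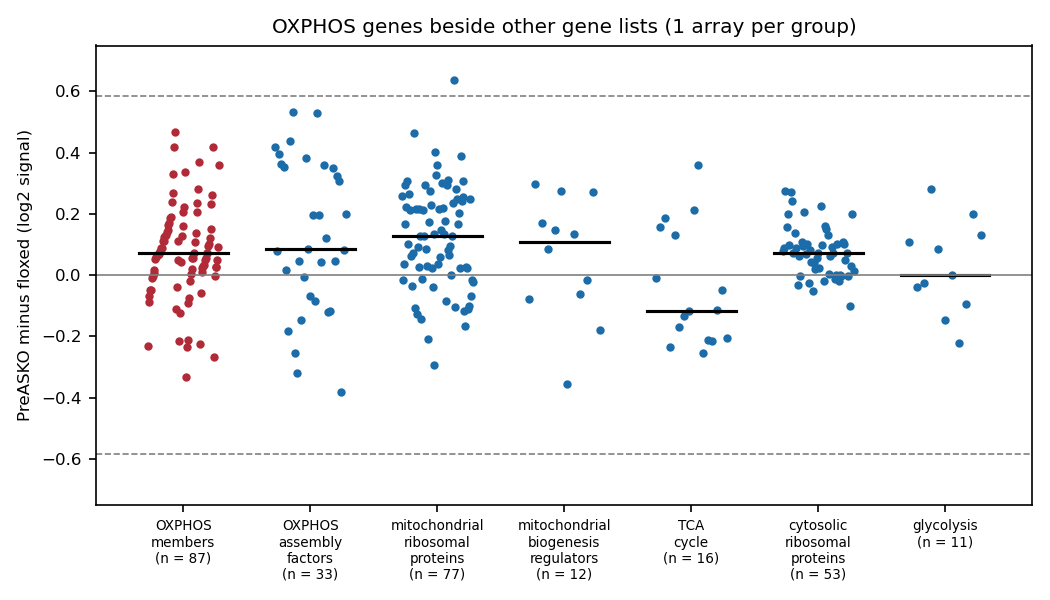
Difference PreASKO minus floxed in log2 signal (vertical axis) of the 87 members and of 6 other gene lists (horizontal axis, with the number of genes). Points are genes, black lines medians and dashed lines 1.5-fold; the medians of the members (0.07) and of mitochondrial ribosomal proteins (0.13) lie above 0 and that of the citric acid cycle (TCA, -0.12) below.

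Markers of other cells also differed between the arrays. All 12 macrophage markers were higher in PreASKO, 5 of them by 1.5-fold, with a median of 0.53. Their summed linear signal was 8245 in floxed and 11804 in PreASKO, and none was below background. All 7 measured markers of dividing cells were lower, 6 by 1.5-fold, with a median of -1.16 and a sum of 591 and 280. Fibroblast and adipocyte precursor markers had a median of -0.05 over 8 genes (sum 16379 and 15805), 7 of them lower and none past 1.5-fold. Skeletal muscle markers had a median of 0.17 over 8 genes, 4 below background, with 1 past 1.5-fold, Tnnt3 (5.35 and 6.12), and a sum of 240.5 and 283. Brown or beige adipocyte markers had a median of 0.21 over 7 genes, none past 1.5-fold and a sum of 179 and 221. Ucp1 and Cidea were among the 5 below background, as was Elovl3, whose difference is that median. Only Cox7a1 and Cox8b of this list were above background in either array. White adipocyte markers had a median of -0.0027 over 6 genes, none past 1.5-fold, with 4 below background, Adipoq among them, and a sum of 1677 and 1848. Most of that sum came from Fabp4, at 10.60 and 10.75. Mural markers had a median of -0.25 over 8 genes, with Kcnj8 lower by 1.5-fold, and a sum of 823 and 693. The mural marker Cnn1 (3.35 and 3.98) was 1.5-fold higher, with both values below background. Endothelial markers had a median of -0.15 over 6 genes, 1 of them lower by 1.5-fold and 1 below background, with a sum of 456 and 404. The part of any of these cells in the members' values was not tested.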

How the data were processed

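Expression was measured on 2 arrays, floxed and PreASKO, of 1 pool of 3 mice each. The authors deposited RMA values, per the submitters' processing notes. They are taken as log2 signals because the deposited values run from 1.23 to 13.8. Version, log base and genome build are not given in the sources used here. RMA makes the arrays' distributions alike.

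Of 35556 probe sets, 21789 named 1 gene in the platform annotation, 1621 named several and 12146 were not listed there. Those with 1 gene gave 19938 genes. All 87 member symbols matched RefSeq (GRCm38.p6) by gene identifier. With 1 array per group no test was possible, and the number of arrays limits the precision. Members, lists, markers and alternatives were chosen with earlier results of these data known. The genes named were, per group, the 3 most positive and 3 most negative differences, core subunits, tissue isoforms, members with disagreeing probe sets and, per list, the 2 highest and lowest; others were added after their values were seen. Alternatives were the mean over probe sets, quantile normalization, loess on mean level (span 0.3), centring, a level floor (5.18), leaving out assembly factors and a 1.2-fold limit. Raising values to background, moving Ndufa4 and Ndufa4l2 to complex I, and the classes of genomic span were added after seeing the data. Steps were tested on simulated data. Python 3.11.15, pandas 2.3.3, numpy 2.4.6, statsmodels 0.14.6 and matplotlib 3.10.9 were used.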

Additional observations from a re-analysis of the deposited data

How the results depend on the processing

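The count of members past 1.5-fold was 0 in each direction under the mean over probe sets, quantile normalization, loess, centring, the level floor, leaving out assembly factors and raising values to background. At 1.2-fold it became 9 higher and 2 lower. The median over the members was lowest, at 0.0301, with the median of each class of genomic span taken off. That value covers only the 74 members in these classes. After loess the median was 0.0443 over 87 members, and it was highest with the level floor, at 0.0721 over 83. PreASKO stayed the higher array in 60 to 66 members under the rescalings. The median of complex II, at 0.0055, became -0.0202 after loess and -0.0054 after quantile normalization. Of single members 6 changed sign after loess, 4 after quantile normalization and 3 with the mean over probe sets; the largest of these was Ndufb11, from 0.07 to -0.09. Under the mean over probe sets Atp5md moved to -0.13, Ndufa11 to 0.31 and Ndufc1 to 0.0025. Moving Ndufa4 and Ndufa4l2 to complex I changed its median from 0.09 to 0.10 and that of complex IV from 0.0557 to 0.0193. The complex IV median also fell to 0.0223 after quantile normalization, 0.0242 after loess and 0.0193 with values raised to background. The cause of these shifts was not tested. No paired analysis was possible because there is only 1 array per group, and no replicate could be left out. Signals of Cox4i2, Cox7b2, Cox8c and Ndufaf6 were too close to background for their differences to be read.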

Other observations

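Gene lists that do not belong to mitochondrial respiration were read on the same arrays. Cytosolic ribosomal proteins, short genes with a median span of 3.17 kb, had a median difference of 0.07 over 53 genes, as the respiratory genes had. Of these 41 (77.4%) were higher in PreASKO and none passed 1.5-fold. Higher were 48.2% of all genes and 65.6% of the other genes in the shortest class of span. Rpl12 (5.19 and 5.47) and Rpl21 (11.59 and 11.86) stood highest, and Rps6 (11.68 and 11.58) and Rpl4 (11.78 and 11.73) lowest. Glycolysis genes had a median of 0 over 11 genes, with 5 higher and 5 lower and none past 1.5-fold. Ldha, lactate dehydrogenase, was at 8.37 and 8.65 and the pyruvate kinase gene Pkm at 7.79 and 7.99, against Pgam1 at 8.17 and 7.95 and Pfkm at 5.67 and 5.52. Genes of heme synthesis and iron-sulfur clusters, the cofactors of complexes I to IV, had a median of 0.002 over 14 genes, divided evenly between the directions, with none past 1.5-fold. Ppox (5.05 and 5.52), of heme synthesis, and Isca2 (5.73 and 6.11), an iron-sulfur assembly protein, were highest, and the heme synthesis genes Alad (6.28 and 6.00) and Urod (5.91 and 5.73) lowest.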
